A study of Mus musculus with 6 samples.

Results

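Calcium channels, calcium pumps and transient receptor potential (TRP) channels were examined in cultured mouse aortic smooth muscle cells, as a set of genes chosen by symbol. The set holds the voltage-gated channel subunits (Cacn), ryanodine and IP3 receptors (Ryr, Itpr), calcium ATPases (Atp2a, Atp2b, Atp2c), ORAI and STIM proteins, TRPC, TRPM and TRPV genes, calsequestrins, phospholamban (Pln) and the exchanger Slc8a1. It counts 73 of the 27179 genes in the table. The symbol rule also takes in Trpc4ap, which encodes a TRPC4-associated protein rather than a channel, and Trpc5os, an opposite-strand transcript. The rule that selects the genes reads symbols only, although the set was proposed with earlier results of these data known. The comparison was between 3 libraries labelled WT and 3 labelled Bmal1 KO. BMAL1, encoded by Arntl, is a transcription factor of the circadian clock. All 6 libraries came from primary smooth muscle cells of mouse aorta, and both groups had spent 7 days in a medium with glucose at 4.5 g/L and hydrogen peroxide at 0.3 mM, which the labels call diabetic. No group in normal medium was analysed here, so every value belongs to that medium. The labels give neither the deletion's design nor the animals' age, strain or sex, and do not say whether the libraries of a group came from separate animals or cultures. The p-values below therefore measure the spread between these libraries, which may be technical.

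Values are read counts per gene that the authors divided by a size factor per library, and a level is the mean ± SD of the 3 libraries of a group unless stated. Folds are ratios of these means. Log2 fold changes (libraries labelled Bmal1 KO minus WT) come from limma on log2(value + 1), with the standard error, and "rose" or "fell" marks an adjusted p under 0.05 over all 16086 genes that reached a value of 10 in at least 3 libraries. The libraries held 32503525 to 44657471 reads in genes. Arntl itself was at 529, 619 and 590.3 in WT and at 1036, 941 and 1036 in the libraries labelled Bmal1 KO, so its counts over the whole gene rose and do not show the deletion. Xist ran from 12.4 to 89.9 in WT and from 3842 to 3887 in the other group, while the Y-linked Ddx3y ran from 2784 to 3314 and from 68.5 to 82.5. Genotype and sex-linked expression thus separate the same libraries and cannot be told apart. Of 8 smooth muscle markers 7 rose, and their summed value was 28663 to 32773 in WT and 100035 to 108351 in the other group, although Myh11, the smooth muscle myosin heavy chain, was at only 14.9 to 68.2 in WT. Markers of other cells moved as well. Of 6 endothelial markers 5 rose and none fell, with summed values of 322 to 463 in WT and 799 to 1054 in the other group. Of 6 macrophage markers 5 rose and Cd68 fell, with sums of 829 to 1035 and 1809 to 2053. Of 5 fibroblast markers 2 rose and 3 fell, with sums of 37283 to 39325 and 15676 to 16573. The 4 adipocyte markers summed to 1289 to 1953 and 4728 to 6144, nearly all of it Fabp4, since the other 3 stayed under 10 in every library. Of 4 chondrocyte markers none rose and 2 fell, with sums of 2078 to 2219 and 1437 to 1547. Of 13 striated muscle markers Myog was at 0 in every library, and their sum was 577 to 658 in WT and 688 to 761 in the other group. In bulk RNA, fewer cells of a type and less RNA per cell cannot be told apart.

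Some marker lists moved within the groups too. The sum of 7 neuron markers (Snap25, Syt1, Rbfox3, Elavl4, Stmn2, Nefl and Syn1) was 2894, 1110.4 and 2874 in WT and 10194, 15538 and 14692 in the libraries labelled Bmal1 KO. All 7 rose, none was at 0, and WT replicate 2 held 0.385 times the mean of the other two WT libraries. The 4 Schwann cell markers summed to 966 to 1433 in WT and to 1916 to 3678 in the other group. Their sum in WT replicate 2 was 0.735 times the mean of the other WT libraries. In Bmal1 KO replicate 1 it was 0.548 times the mean of the other libraries of that group. Of the 60 tested channel and pump genes 18 also had a low WT replicate 2, as described after the gene groups, and the part of such RNA in the results was not tested.

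Smooth muscle cells use calcium as the trigger of contraction and as a signal to the nucleus. Calcium enters through voltage-gated, store-operated and TRP channels of the plasma membrane or leaves the sarcoplasmic reticulum through IP3 and ryanodine receptors. It is removed by SERCA pumps into the reticulum, by PMCA pumps and sodium-calcium exchange out of the cell, and by SPCA pumps into the Golgi. In the artery wall the L-type pore Cacna1c carries most depolarisation-driven entry, while STIM, ORAI and TRPC proteins have been linked to the growing, non-contractile state of these cells.

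Of the 73 genes, 60 passed the filter on low values, and of these 39 rose, 9 fell and 12 did not pass the test. Among all 16086 tested genes 71.1% were called, 36.2% as higher and 34.9% as lower. The called share of the channel and pump genes was 80.0%, near that background, while 65.0% of them were higher and 15.0% lower. Their median log2 fold change was 1.03, against -0.01 over all tested genes. A rise of 2-fold or more was called for 31 genes (20.6% of all tested genes) and a fall of 2-fold or more for 6 genes (13.0% of all tested genes). The groups did not overlap for 50 of the 60 genes, or 83.3%, against 76.7% of all tested genes. The differences were larger among weakly expressed genes. Of the 43 genes with a mean over the 6 libraries of at least 100, 26 rose, 7 fell and 10 did not pass. Their median was 0.48, against -0.07 for all genes at that level. Of the 30 genes below it only 17 could be tested, and their median was 2.05 against 0.54 for all tested genes at that level. Trpc4, Trpc7, Cacng6 and Casq2 passed the filter through the libraries labelled Bmal1 KO alone, and Trpv3 through WT alone, so these 5 genes had to differ. All 5 are among the 17 weak genes tested, so the median of 2.05 rests partly on them. Ryr3, Cacna1d, Cacng4, Cacng5, Trpm5 and Trpv6 are among the 17 too, and needed libraries labelled Bmal1 KO to pass.

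**Figure D1:**
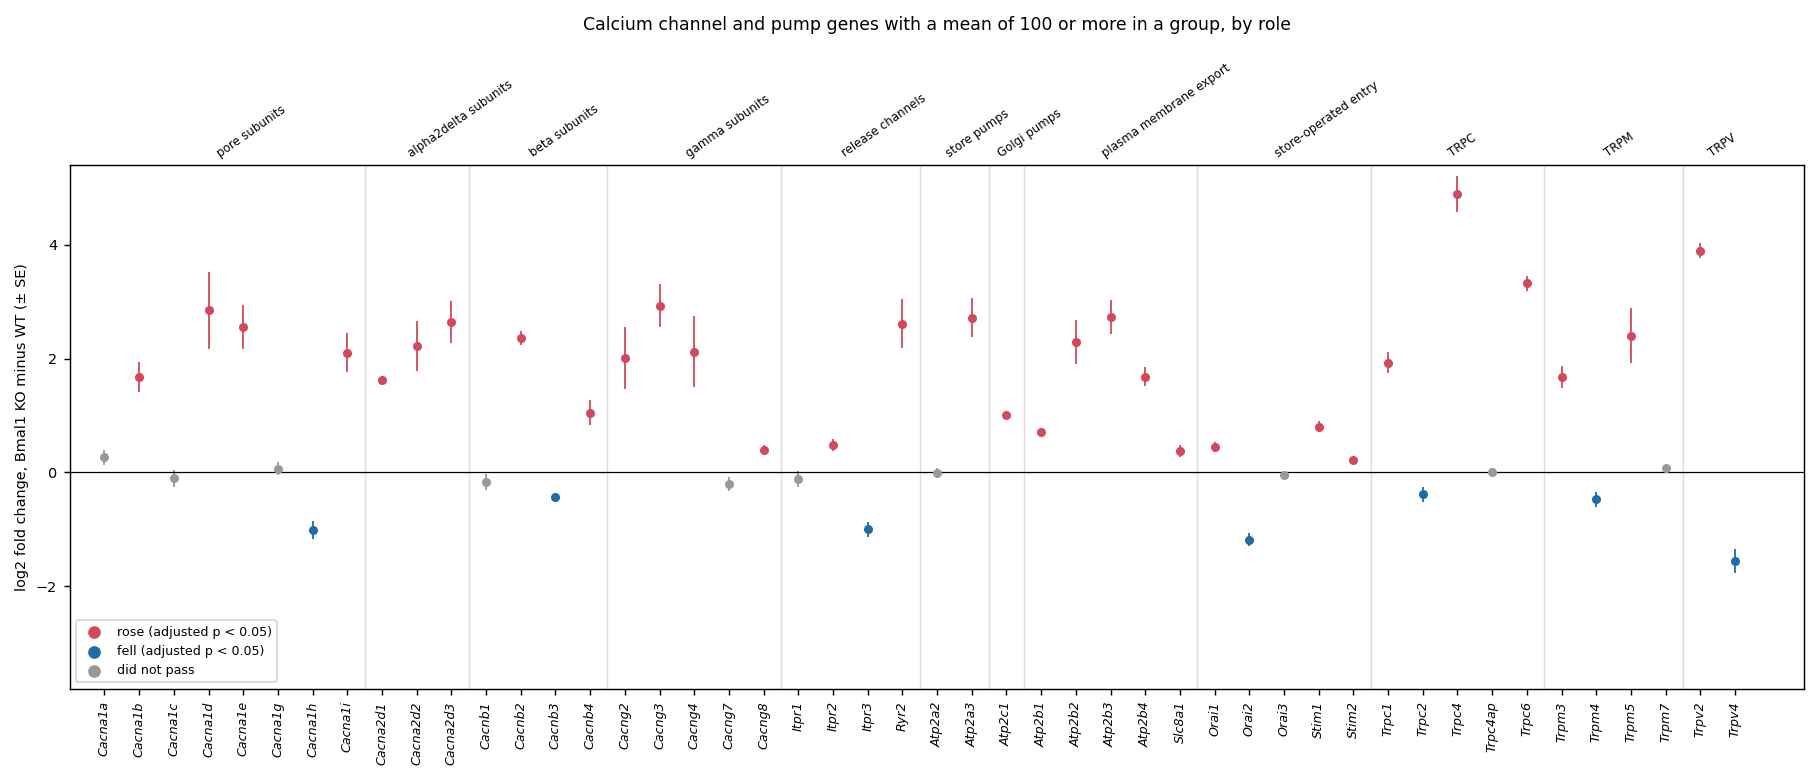
Log2 fold change (vertical axis, libraries labelled Bmal1 KO minus WT, bars ± SE from limma) of the 48 genes with a mean of at least 100 in a group, ordered by role along the horizontal axis. Points above the line at 0 outnumber those below it, with 31 red points for genes that rose, 7 blue for genes that fell and 10 grey for genes that did not pass.

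Promoters are shown for a few of these genes because BMAL1 is known to bind, with CLOCK, the E-box CACGTG, and because serum response factor binds the CArG box in many smooth muscle genes. Promoter windows from RefSeq on GRCm38.p6 (250 bases before to 50 after a start) were found for 60 of the 73 genes, with 77 windows in all. The palindrome CACGTG, which reads the same on both strands, stood in 6 of the 77 windows (7.79%), against 7.15% of 32851 windows of all genes and 9.39% of the windows of tested genes. It stood in 3 of 7 windows of genes that fell (Itpr3, Orai2 and Trpv3), in 1 of 48 windows of genes that rose (Atp2b1), and in windows of Trpm1 and Trpm7. The 7 windows cover 6 of the 9 genes that fell, and the 48 cover 36 of the 39 that rose. Trpv3 passed the filter through WT alone, so its place among the genes that fell was set by the filter. The CArG box, searched on both strands, stood in windows of Trpc6 and Trpv1, 2.60% of the 77 against 1.63% of all windows. The capitals below mark these motifs. Itpr3 lies at chr17:27057054-27057353 on the plus strand, Orai2 at chr5:136170607-136170906 on the minus strand, Trpv3 at chr11:73267270-73267569 on the plus strand, Atp2b1 at chr10:98914392-98914691 on the plus strand and Trpc6 at chr9:8543892-8544191 on the plus strand.
Itpr3: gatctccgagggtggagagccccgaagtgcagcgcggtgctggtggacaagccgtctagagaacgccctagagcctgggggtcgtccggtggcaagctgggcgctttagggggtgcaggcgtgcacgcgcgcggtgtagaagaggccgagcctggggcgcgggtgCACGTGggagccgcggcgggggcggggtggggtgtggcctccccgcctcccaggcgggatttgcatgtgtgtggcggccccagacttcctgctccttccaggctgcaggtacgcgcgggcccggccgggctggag
Orai2: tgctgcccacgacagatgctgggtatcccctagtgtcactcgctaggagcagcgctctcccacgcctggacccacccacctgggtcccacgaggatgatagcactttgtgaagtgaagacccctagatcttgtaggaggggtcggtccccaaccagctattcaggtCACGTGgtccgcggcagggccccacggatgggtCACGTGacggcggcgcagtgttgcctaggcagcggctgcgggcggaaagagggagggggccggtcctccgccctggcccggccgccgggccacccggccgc
Trpv3: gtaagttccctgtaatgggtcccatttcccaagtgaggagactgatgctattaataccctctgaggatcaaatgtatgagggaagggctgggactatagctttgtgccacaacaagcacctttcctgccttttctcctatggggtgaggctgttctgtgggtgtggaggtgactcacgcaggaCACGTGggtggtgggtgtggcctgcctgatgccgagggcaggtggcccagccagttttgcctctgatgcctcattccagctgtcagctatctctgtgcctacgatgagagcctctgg
Atp2b1: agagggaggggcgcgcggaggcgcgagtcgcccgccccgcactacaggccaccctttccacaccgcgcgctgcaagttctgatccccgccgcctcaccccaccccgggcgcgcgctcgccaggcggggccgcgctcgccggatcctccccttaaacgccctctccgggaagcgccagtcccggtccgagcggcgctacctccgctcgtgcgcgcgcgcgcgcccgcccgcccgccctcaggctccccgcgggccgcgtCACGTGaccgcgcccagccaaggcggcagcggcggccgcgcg
Trpc6: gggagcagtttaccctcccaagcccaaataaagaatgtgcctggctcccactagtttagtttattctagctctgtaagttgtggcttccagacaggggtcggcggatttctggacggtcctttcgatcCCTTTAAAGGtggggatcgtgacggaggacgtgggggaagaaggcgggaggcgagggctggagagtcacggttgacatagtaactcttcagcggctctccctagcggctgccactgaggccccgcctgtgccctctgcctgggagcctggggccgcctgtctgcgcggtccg
Orai2 carries the E-box more than once and Itpr3, Trpv3 and Atp2b1 carry it once. A match of letters is a description of the window and not a bound site, and no binding was measured in these libraries.

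The pores of voltage-gated channels split between well expressed genes, which fell or did not pass the test, and weak genes, which rose. Of 10 pore genes 8 were tested, with 4 that rose, 1 that fell and 3 that did not pass. The strongest was Cacna1g, the T-type pore Cav3.1, at 2108, 2821 and 2530 in WT and 2504, 2914 and 2375 in the libraries labelled Bmal1 KO. These groups overlapped, and the log2 fold change was 0.07 ± 0.12 (adjusted p = 0.63), with -0.30 (limma adjusted p = 0.0082) once each library was corrected for transcript length and GC content. Cacna1c, the L-type pore Cav1.2, was at 976, 1459 and 1347 in WT and at 1141, 1257 and 1078 in the other group. Its groups overlapped as well, at a log2 fold change of -0.10 ± 0.15 (adjusted p = 0.549). That value depends on 1 library: without WT replicate 1, the lowest WT value, it was -0.28 (limma adjusted p = 0.0185), and corrected for length and GC content -0.61 (limma adjusted p = 0.000631). Cacna1a, the P/Q-type pore, was at 815, 604 and 676 in WT and at 745, 921 and 851 in the other group, with overlap and a log2 fold change of 0.27 ± 0.13 (adjusted p = 0.0973). Without WT replicate 1, here the highest WT value, it reached 0.39 (limma adjusted p = 0.0153).

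Cacna1h, the T-type pore Cav3.2, was the pore gene that fell. Its WT libraries were at 488, 745 and 548 and those labelled Bmal1 KO at 287, 287 and 290.2. Every WT value exceeded every value of the other group, which barely varied, and the level fell 2.06-fold (log2 fold change -1.02 ± 0.16, adjusted p = 0.000675). Cacna1i, the third T-type pore, went the other way, from 78.0, 35.7 and 100.4 to 280.2, 279 and 297. Without overlap it rose 4.0-fold (log2 fold change 2.11 ± 0.35, adjusted p = 0.000903). Summed per kilobase of merged exons, the T-type pores stood at 372 ± 55.4 in WT and 369.7 ± 32.2 in the other group, so the total differed by less than the spread.

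The other risers among the pores are genes best known from neurons. Cacna1b, the N-type pore, was at 95.4, 49.8 and 88.4 in WT and at 275, 242 and 215 in the libraries labelled Bmal1 KO. The groups stood apart and the rise was 3.13-fold (log2 fold change 1.68 ± 0.26, adjusted p = 0.000673). Cacna1d, the L-type pore Cav1.3, was at 37.6, 5.80 and 46.0 and then at 206, 126 and 175, a 5.66-fold rise (adjusted p = 0.00601). Cacna1e, the R-type pore, was at 36.7, 13.3 and 37.8 and then at 135, 175 and 177, a 5.55-fold rise (adjusted p = 0.000667). In Cacna1b, Cacna1d and Cacna1e WT replicate 2 was the lowest library. The retinal pore Cacna1f stayed below 5 in each library, and Cacna1s, the skeletal muscle L-type pore, ran from 0 to 2.75 in WT and from 5.99 to 8.15 in the other group. Both were too low to test.

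The alpha2delta subunits, which help bring pores to the membrane, rose in 3 of 3 tested genes. Cacna2d1 was by far the strongest, at 1124, 1275 and 1329 in WT and at 3813, 3969 and 3658 in the libraries labelled Bmal1 KO. The libraries within each group lay close together, the groups stood far apart, and the rise was 3.07-fold (log2 fold change 1.62 ± 0.08, adjusted p = 1.41e-06). Cacna2d2 went from 92.6, 50.6 and 176 to 591, 496 and 298, a 4.34-fold rise (log2 fold change 2.23 ± 0.44, adjusted p = 0.00239). Cacna2d3 went from 55.9, 22.4 and 63.5 to 299, 297 and 236, a 5.87-fold rise (log2 fold change 2.65 ± 0.37, adjusted p = 0.0004). Neither overlapped between groups, and in both WT replicate 2 was lowest. Summed per kilobase, the alpha2delta family went from 179.6 ± 22.6 to 605 ± 50.1, or 3.37-fold. Cacna2d4 ran from 1.14 to 14.3 over the 6 libraries and was not tested.

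Among the beta subunits, cytosolic partners that promote surface expression of the pores, 2 rose, 1 fell and 1 did not pass. Cacnb2 was at 118, 149 and 124 in WT and at 656, 671 and 693 in the other group. With tight groups and no overlap, it rose 5.16-fold (log2 fold change 2.36 ± 0.12, adjusted p = 2.23e-06). Cacnb3, the dominant beta subunit, fell from 5458, 6416 and 5737 to 4475, 4400.2 and 4197. Every WT value was above every value of the other group, and the fall was 1.35-fold (log2 fold change -0.43 ± 0.07, adjusted p = 0.00117). Cacnb4 went from 222, 132 and 179 to 292, 429 and 375, without overlap, a 2.06-fold rise (log2 fold change 1.05 ± 0.22, adjusted p = 0.00327). Opposite-strand exons of another gene cover 13.4% of its merged exons, and the strand setting of the counting is not given in the sources used here. Cacnb1 was at 428, 478 and 438 and at 336, 475 and 399, with overlap and a log2 fold change of -0.17 ± 0.14 (adjusted p = 0.311). Per kilobase, Cacnb3 made up 92.6% of the beta subunits in WT and 83.9% in the other group.

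Of 8 gamma genes, which include regulators of AMPA-type glutamate receptors in neurons, 7 were tested and 6 rose. The strongest, Cacng7, did not pass, at 1269, 1793 and 1537 in WT and 1294, 1330 and 1343 in the other group. Its groups overlapped through WT replicate 1, and without that library the log2 fold change moved from -0.20 (adjusted p = 0.166) to -0.33 (limma adjusted p = 0.00663). Its chromosome 7 neighbour Cacng8 rose slightly, from 542, 502 and 526 to 714, 700.2 and 652, or 1.32-fold (log2 fold change 0.40 ± 0.08, adjusted p = 0.00347). These groups did not overlap. The remaining gamma genes were weak. Cacng2 went from 85.3, 17.4 and 79.2 to 224, 218 and 168 (3.36-fold, adjusted p = 0.0116). Cacng3 went from 33.9, 14.1 and 32.2 to 137, 245 and 228 (7.59-fold, adjusted p = 0.000268). Cacng4 went from 39.4, 8.29 and 56.2 to 162, 108 and 99.4 (3.55-fold, adjusted p = 0.016), a call lost without Bmal1 KO replicate 1 (limma adjusted p = 0.0534). In each of these 3 genes the groups did not overlap and WT replicate 2 was the lowest library. Cacng5 and Cacng6 stayed under 35 in every library and rose 4.73-fold and 4.48-fold, the former 11.0-fold without WT replicate 1. Cacng6 passed the filter through the libraries labelled Bmal1 KO alone, so it had to differ. Cacng4 and Cacng5 also needed libraries of that group to pass the filter. The count of 6 that rose includes these genes. Cacng1, the skeletal muscle gamma subunit, was at 0 to 5.10 and not tested.

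Release channels of the reticulum shifted between isoforms. Itpr3, the most abundant IP3 receptor per kilobase in WT, was at 4854, 7335 and 6128 in WT and at 2862, 3140 and 3027 in the libraries labelled Bmal1 KO. All WT values exceeded those of the other group, and the level fell 2.03-fold (log2 fold change -1.0 ± 0.14, adjusted p = 0.000349). Itpr1 was at 2404, 3256 and 3238 and at 2334, 2866 and 3018, with overlap and no call (log2 fold change -0.11 ± 0.14, adjusted p = 0.507), although it passed as lower with length and GC content removed (-0.54, limma adjusted p = 0.00161). Itpr2 rose 1.40-fold, from 1234, 1505 and 1487 to 1971, 2128 and 1803 (log2 fold change 0.48 ± 0.10, adjusted p = 0.00303). The groups of Itpr2 did not overlap, but once each library was corrected for transcript length and GC content the log2 fold change was 0.01 (limma adjusted p = 0.93). Per kilobase, Itpr3 gave 61.6 ± 2.15% of the IP3 receptors in WT and 43.0 ± 0.95% in the other group, Itpr1 27.4% and 35.5%, and Itpr2 11.0% and 21.5%. The family total went from 1099 ± 195 to 779 ± 51.0 per kilobase.

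Ryanodine receptors were weakly expressed and higher in the libraries labelled Bmal1 KO. Ryr2, the cardiac form that is also found in arterial muscle, was at 87.1, 27.4 and 43.3 in WT and at 195, 342 and 380.4 in the other group. The groups stood apart despite a wide spread, and the rise was 5.81-fold (log2 fold change 2.62 ± 0.43, adjusted p = 0.000894). Ryr3 rose 6.76-fold, with 0.829 to 17.5 in WT and 43.8 to 92.3 in the other group (adjusted p = 0.0109). Ryr1, the skeletal muscle form, ran from 34.0 to 39.4 and from 46.9 to 77.7, a 1.68-fold difference at an adjusted p of 0.0367. The Ryr1 call was lost under 11 of the 18 alternatives, with DESeq2 among them (adjusted p = 0.0554). Even summed, the ryanodine receptors reached only 25.5 ± 7.90 per kilobase in the libraries labelled Bmal1 KO, against 779 for the IP3 receptors.

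The main reticulum pump did not pass the test, while its minor relative rose. Atp2a2 (SERCA2), the strongest gene of the whole set per kilobase, was at 16617, 20250.0 and 19808 in WT and at 18425, 19095 and 18820.2 in the other group. The WT values bracketed all the others, and the log2 fold change was -0.00 ± 0.09 (adjusted p = 0.976), or -0.18 with length and GC content removed (limma adjusted p = 0.00775). Atp2a3 (SERCA3) went from 227, 105 and 284 to 1087, 1150 and 1573, without overlap, a 6.19-fold rise (log2 fold change 2.72 ± 0.34, adjusted p = 0.00022). Atp2a2 still made up 92.7% of SERCA per kilobase in the libraries labelled Bmal1 KO, from 98.6% in WT. The total SERCA level was 3631 ± 369 and 3840 ± 92.6 per kilobase. Atp2a1, the skeletal muscle SERCA, was at 18.2 to 24.8 and at 12.6 to 26.5, with no call (adjusted p = 0.428). Of the proteins that hold calcium in the store, Casq2 rose 3.84-fold from 2.75 to 4.60 up to 10.3 to 16.3 (adjusted p = 0.00732). Casq2 passed the filter through the libraries labelled Bmal1 KO alone, so it had to differ. Casq1 did not pass the test (18.3 to 20.7 and 21.6 to 43.4, adjusted p = 0.158). Phospholamban, the inhibitor of SERCA2, stayed at 0.917 to 3.32 in WT and at 5.10 to 13.2 in the other group, under the filter, and 59.6% of the merged exons of Pln are shared with an opposite-strand gene.

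The Golgi pump Atp2c1 (SPCA1) was raised in every library labelled Bmal1 KO. It was at 2540.5, 2547 and 2731 in WT and at 5202, 5393 and 5056 in the other group. With little spread and no overlap, it rose 2.00-fold (log2 fold change 1.00 ± 0.06, adjusted p = 4.26e-06). Its relative Atp2c2 was at 4.59 to 16.6 in WT and at 4.08 to 14.9 in the other group and was not tested.

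All 5 genes of calcium export across the plasma membrane rose. Atp2b1 (PMCA1), the main pump, was at 3631, 3290.4 and 3585 in WT and at 5354, 6099 and 5821 in the libraries labelled Bmal1 KO. Its groups stood apart, and the rise was 1.64-fold (log2 fold change 0.72 ± 0.07, adjusted p = 6.52e-05). Atp2b4 (PMCA4) went from 273, 248 and 319.6 to 711, 1067 and 947, a 3.24-fold rise (log2 fold change 1.68 ± 0.17, adjusted p = 6.28e-05). Atp2b2, a pump known from neurons and hair cells, went from 334, 114 and 336 to 961, 1264 and 1244, or 4.43-fold (log2 fold change 2.29 ± 0.39, adjusted p = 0.00112). No group overlap was seen for these genes. All 5 export genes were lowest in WT replicate 2. Its ratio to the mean of the other WT libraries was 0.339 for Atp2b2, 0.491 for Atp2b3 and 0.836 to 0.944 for the rest. Atp2b3, another neuronal pump and one encoded on the X chromosome, went from 56.9, 25.7 and 47.9 to 249, 323 and 274, or 6.48-fold (log2 fold change 2.73 ± 0.30, adjusted p = 9.87e-05). Slc8a1, the sodium-calcium exchanger NCX1, went from 532, 529.9 and 590.3 to 655, 805 and 699, or 1.31-fold (log2 fold change 0.38 ± 0.10, adjusted p = 0.0114). Slc8a1 did not overlap between groups, but its direction turned with length and GC content removed (log2 fold change -0.23, limma adjusted p = 0.0244). Summed per kilobase, the PMCA pumps went from 551 ± 44.8 to 1064 ± 92.4, with Atp2b1 at 89.3% of the family in WT and 76.0% in the other group.

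**Figure D2:**
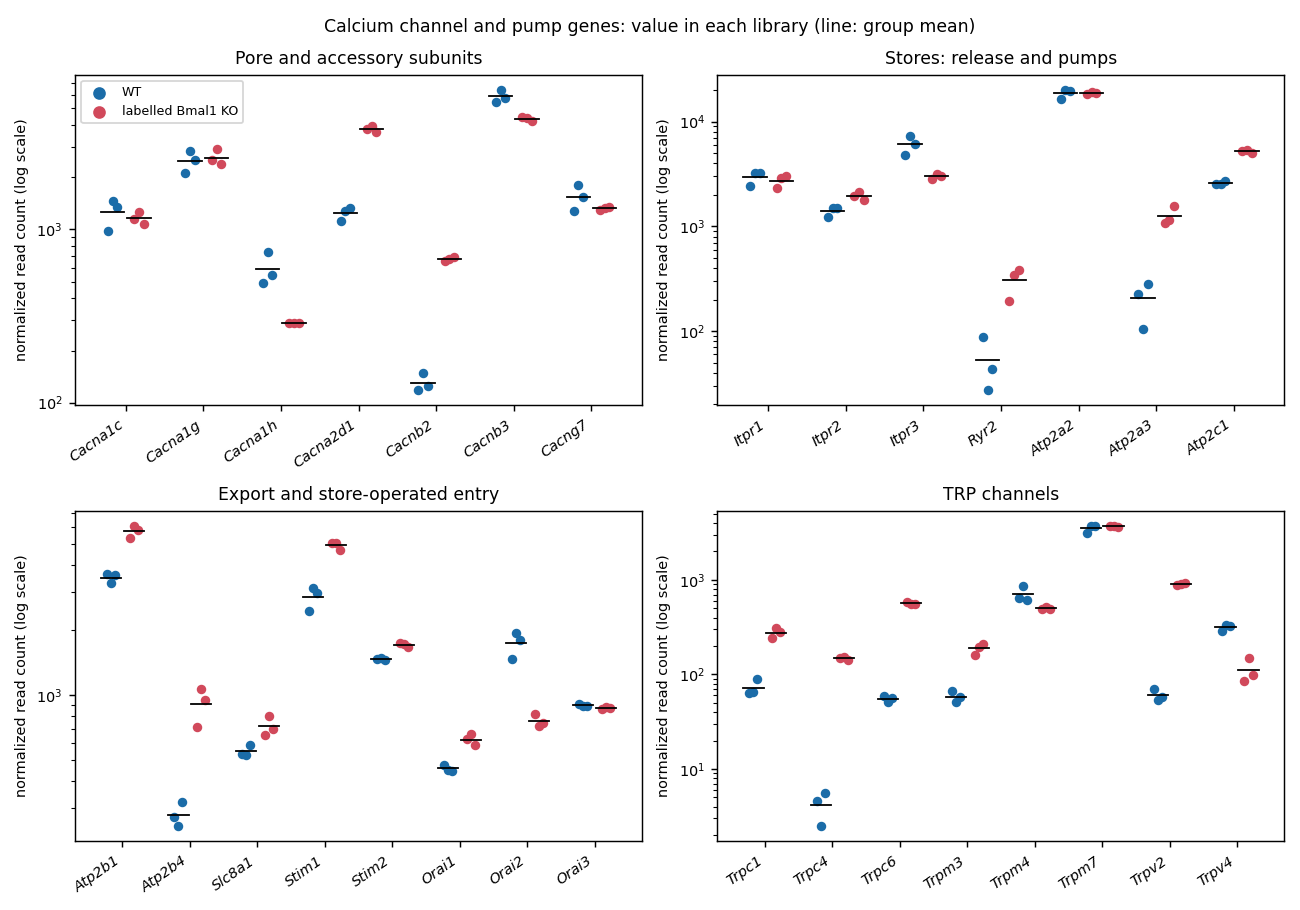
Normalized read count (vertical axes, log scale) of 30 genes in each of the 3 WT libraries (blue) and 3 libraries labelled Bmal1 KO (red), with lines at the group means. Trpv2, Trpc6, Cacnb2, Cacna2d1 and Atp2c1 show separate, tight groups, Atp2a2, Orai3 and Trpm7 lie close together, and Itpr3, Orai2, Cacna1h and Trpv4 are lower in red.

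Store-operated entry couples the STIM sensors of the reticulum to the ORAI pores of the plasma membrane, and its genes moved in opposite directions. Stim1 was at 2456, 3128 and 2985 in WT and at 5090.0, 5075 and 4680.2 in the libraries labelled Bmal1 KO. The groups did not overlap, and Stim1 rose 1.73-fold (log2 fold change 0.80 ± 0.10, adjusted p = 0.000179). Stim2 rose 1.16-fold, from 1473, 1488 and 1455 to 1751, 1722 and 1668 (log2 fold change 0.22 ± 0.06, adjusted p = 0.0109). Its groups were narrow and separate, but the call was lost with libraries scaled to total reads (log2 fold change 0.15, limma adjusted p = 0.0532) and with length and GC content removed (adjusted p = 0.093).

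Orai2 fell most clearly. It was at 1471, 1949 and 1794 in WT and at 817, 721 and 745 in the other group. Every WT library exceeded every other library, and the fall was 2.28-fold (log2 fold change -1.18 ± 0.11, adjusted p = 5.06e-05). Orai1, the classical pore of this pathway, rose 1.36-fold, from 478, 453 and 444 to 625, 658 and 588, without overlap (log2 fold change 0.44 ± 0.09, adjusted p = 0.00258). Orai3 was at 912, 889 and 892 and at 861, 879 and 874. Its groups did not overlap, yet the log2 fold change of -0.04 ± 0.07 did not pass (adjusted p = 0.584). Per kilobase, Orai2 went from 39.0% to 20.1% of the ORAI genes and Orai1 from 22.5% to 35.9%, and the ORAI total went from 1090 ± 46.7 to 926 ± 18.8. STIM went from 939 ± 80.1 to 1458 ± 60.4 per kilobase.

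Of the TRPC genes, which encode receptor-operated cation channels, 4 rose. Trpc6, a diacylglycerol-activated channel of vascular muscle, was at 59.6, 50.6 and 56.2 in WT and at 579.8, 555 and 559 in the libraries labelled Bmal1 KO. Both groups were tight, and Trpc6 rose 10.2-fold (log2 fold change 3.33 ± 0.13, adjusted p = 5.02e-07). Trpc1 rose 3.82-fold, from 64.2, 65.5 and 88.4 to 243, 308 and 282, without overlap (log2 fold change 1.93 ± 0.19, adjusted p = 5.18e-05). Trpc4 was nearly silent in WT, at 4.59, 2.49 and 5.53, and stood at 151, 152 and 143 in the other group. That is a 35.4-fold ratio with only 14 WT reads behind it (log2 fold change 4.89 ± 0.31, adjusted p = 6.22e-06). Trpc7, a relative of Trpc6, stayed under 35 in every library and rose 4.78-fold (adjusted p = 0.00824), or 7.67-fold without WT replicate 3. Trpc4 and Trpc7 passed the filter through the libraries labelled Bmal1 KO alone, so both had to differ.

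The remaining TRPC symbols carry reservations. Trpc2 was at 301, 337 and 329 in WT and at 215, 265 and 263 in the other group, a 1.30-fold fall without overlap (log2 fold change -0.38 ± 0.13, adjusted p = 0.0277). Its merged exons are shared to 95.4% with the same-strand gene Xntrpc, so how its reads were assigned is uncertain. Its call was lost without WT replicate 2, WT replicate 3 or Bmal1 KO replicate 1 (limma adjusted p from 0.0698 to 0.0872) and with length and GC content removed (0.0913). Trpc4ap was at 7529, 8114 and 7343 and at 7584, 7830.5 and 7671, with overlap and no call (log2 fold change 0.01 ± 0.06, adjusted p = 0.918). Trpc5 was at 0 to 3.67 in WT and at 8.15 to 16.0 in the other group, and Trpc5os at 0 to 5.99 over all libraries, both below the filter.

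**Figure D3:**
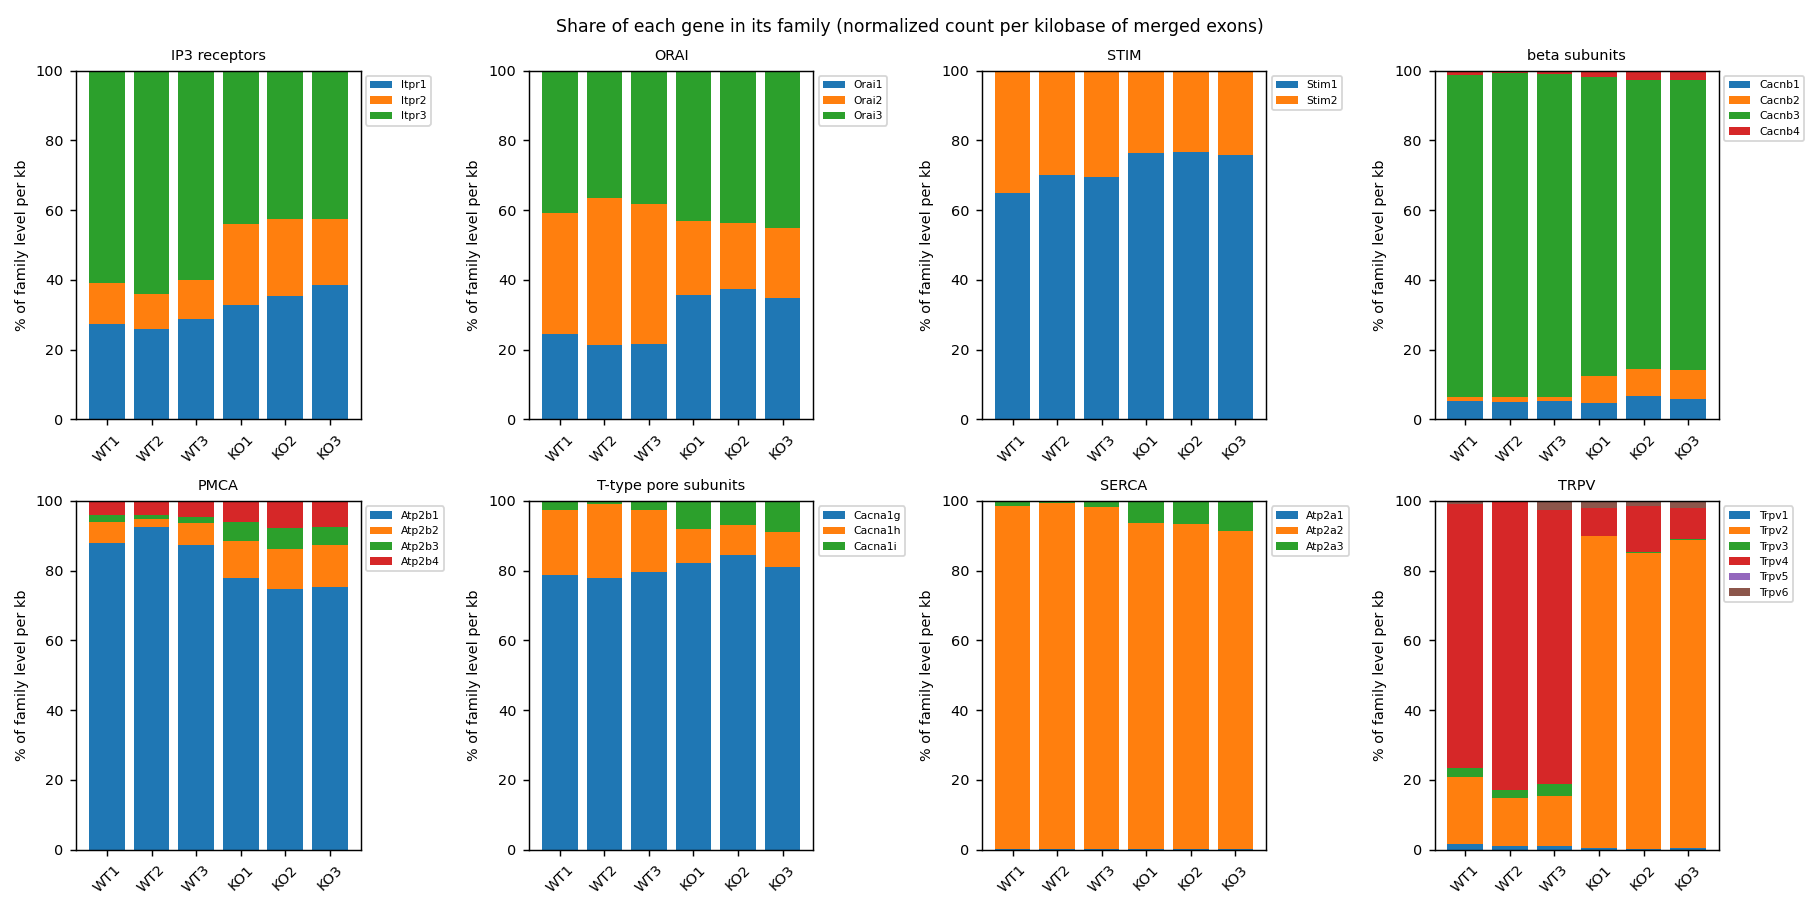
Share of each gene in its family (vertical axes, percent of the family's summed normalized count per kilobase of merged exons) in each of the 6 libraries. Trpv4 gives way to Trpv2, and Itpr3 and Orai2 hold smaller shares, in every library labelled Bmal1 KO, while Atp2a2, Atp2b1 and Cacnb3 stay the main genes of their families.

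In the TRPM family the strongest gene did not pass the test. Trpm7, a channel joined to a kinase that also carries magnesium, was at 3111, 3689 and 3757 in WT and at 3683, 3699 and 3659 in the libraries labelled Bmal1 KO. The groups overlapped (log2 fold change 0.07 ± 0.08, adjusted p = 0.457), and with length and GC content removed the value was -0.27 (limma adjusted p = 0.00295). Trpm4, a calcium-activated sodium-permeable channel that depolarises arterial muscle, fell 1.40-fold, from 643, 857 and 612 to 493, 514 and 498 (log2 fold change -0.47 ± 0.13, adjusted p = 0.0135). All its WT values lay above the other group. Trpm3 rose 3.25-fold, from 66.0, 50.6 and 57.1 to 160.0, 194 and 210.2, without overlap (log2 fold change 1.68 ± 0.19, adjusted p = 0.000121). Trpm5, the taste-cell channel, went from 16.5, 9.12 and 31.3 to 62.2, 86.3 and 153, a 5.30-fold rise without overlap (adjusted p = 0.00273). Trpm2, an ADP-ribose-gated channel linked to oxidative stress, rose 4.42-fold, from 14.9 to 26.6 up to 62.2 to 138 (adjusted p = 0.00125). Trpm1 and Trpm6 stayed between 0.917 and 14.1 in all libraries, and the cold sensor Trpm8 had no read in any.

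The TRPV family changed its dominant gene. Trpv2, a stretch-responsive channel, was at 69.7, 53.9 and 57.1 in WT and at 891, 910.0 and 921 in the libraries labelled Bmal1 KO. It rose 15.1-fold from tight groups and had the lowest adjusted p of the set (log2 fold change 3.90 ± 0.14, adjusted p = 2.64e-07). Trpv4, an osmosensitive and mechanosensitive channel, was at 291, 337 and 327 in WT and at 85.6, 147 and 98.2 in the other group. These groups did not overlap either, and Trpv4 fell 2.88-fold (log2 fold change -1.55 ± 0.21, adjusted p = 0.000343). Trpv3, best known from skin, was at 19.3, 17.4 and 24.9 in WT and at 1.02, 2.40 and 3.43 in the other group. Its 8.99-fold fall rests on 6 reads in the libraries labelled Bmal1 KO, and the exact 95% counting interval of the ratio is 4.0 to 25.8 (adjusted p = 0.000941). Trpv3 passed the filter through WT alone, so it had to differ. Trpv6, an epithelial calcium channel, was at 0.829 to 10.1 and at 15.6 to 19.4, a 3.65-fold rise (adjusted p = 0.0228), or 7.91-fold without WT replicate 3. The Trpv6 call was lost without any 1 of the libraries labelled Bmal1 KO (limma adjusted p from 0.0511 to 0.0665). Trpv6 reached 10 in a single WT library and needed the other group to pass the filter. The capsaicin receptor Trpv1, beside Trpv3 on chromosome 11, stayed under 8 in every library, and Trpv5 had reads in a single one.

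Per kilobase, Trpv4 gave 78.9% of the TRPV level in WT and 10.1% in the libraries labelled Bmal1 KO. Trpv2 went from 15.8% to 87.6%. The TRPV total went from 125 ± 4.92 to 336 ± 12.0 per kilobase.

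A second pattern ran through the weak genes. In 18 of the 60 tested genes (30.0%) WT replicate 2 was under 0.5 times the mean of the other WT libraries, against 8.89% of all tested genes. The share depended on the level. It was 15 of 28 (53.6%) for channel and pump genes with a WT mean under 100, against 29.6% of all tested genes at that level, and 3 of 32 (9.38%) above it, against 1.81%. The 18 were Ryr2, Ryr3, Atp2a3, Atp2b2, Atp2b3, Cacna1d, Cacna1e, Cacna1i, Cacna2d2, Cacna2d3, Cacng2, Cacng3, Cacng4, Cacng5, Trpc4, Trpc7, Trpm5 and Trpv6. All 18 rose, but Trpc4 and Trpc7 among them had passed the filter through the libraries labelled Bmal1 KO alone and had to differ. The other 16 also passed without WT replicate 2, with folds of 2.47 (Cacng2) to 6.14 (Cacng3). Of these, Cacng5 and Trpv6 reached 10 in a single WT library each and needed the libraries labelled Bmal1 KO to pass the filter. Ryr3 (0.829), Cacna1d (5.80), Cacng4 (8.29) and Trpm5 (9.12) were under 10 in WT replicate 2. They too needed a library labelled Bmal1 KO to pass the filter. Among the other 42 genes, 21 rose, 9 fell and 12 did not pass. Over all tested genes 1265 of 1430 with such a ratio rose, so the pattern is not limited to calcium genes. A low WT replicate 2 also lowers the WT mean, so choosing genes by this ratio favours rises by itself. The 1430 genes were not counted again without that library. The neuron markers' part in these rises was not tested.

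**Figure D4:**
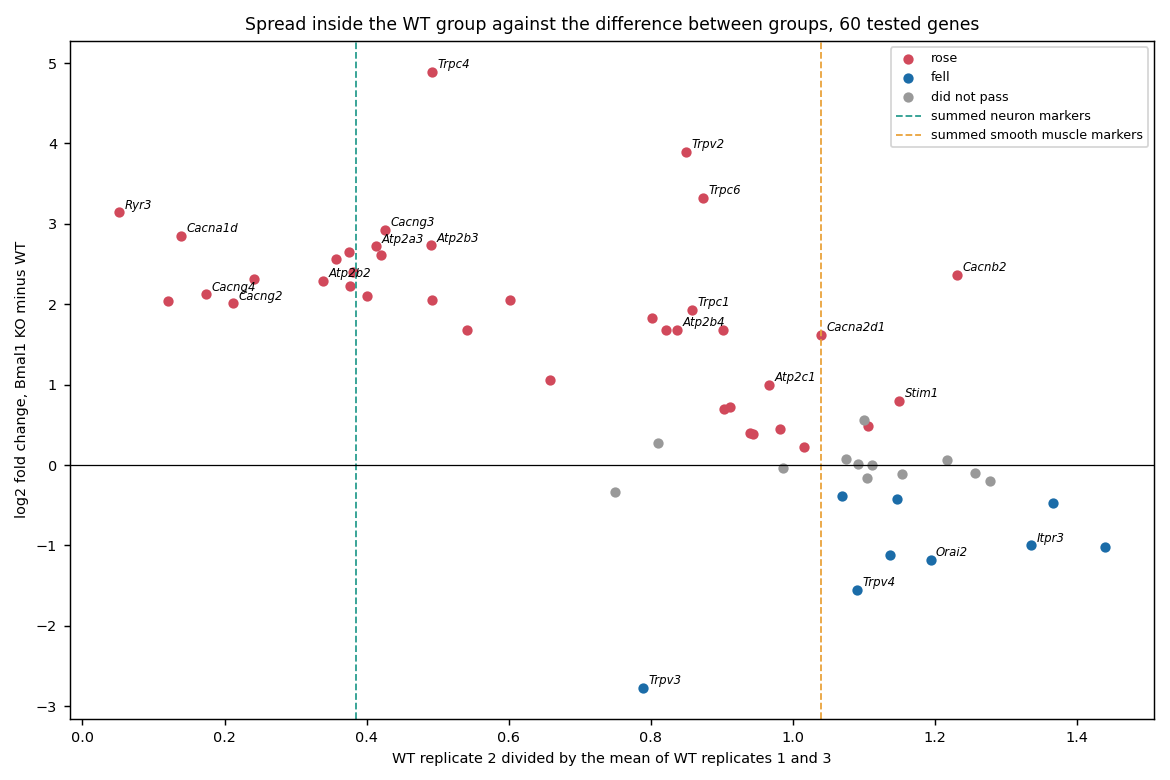
Normalized count in WT replicate 2 divided by the mean of WT replicates 1 and 3 (horizontal axis) against the log2 fold change between groups (vertical axis) for the 60 tested genes, coloured by call; both axes use the WT libraries. The dashed lines mark the same ratio for the summed neuron markers (0.385) and smooth muscle markers (1.04), and the 18 genes with a ratio under 0.5 all rose.

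Genes around the channels were read from 7 lists covering their regulators, enzymes and sensors. Of 122 symbols 121 were found and 111 tested, with 59 that rose, 25 that fell and 27 that did not pass, or 75.7% called, near the background of 71.1%. Their median log2 fold change was 0.34, with 53.2% higher and 22.5% lower, against 36.2% and 34.9% of all tested genes. The list with the most calls upward was calcium sensors and effectors, with 23 of 29 higher, 2 lower and a median of 0.61. Of the other sodium-calcium exchangers 5 of 6 rose and none fell, with a median of 1.76. The lists of other calcium-permeable channels (6 rose, 6 fell and 4 did not pass) and of channel regulators (4, 3 and 2) went both ways. Mitochondrial calcium transport had 3 rising, 5 falling and 4 not passing, or 66.7% called, near the background. Reticulum regulators had 13 rising, 6 falling and 8 not passing, and phospholipase C isoforms 5, 3 and 4.

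By lowest adjusted p, the leading genes of the sensors included Rcan1 and Rcan2. Rcan1, an inhibitor of the phosphatase calcineurin and a known target of its signalling, went from 831, 692 and 740.5 to 3284, 3300 and 3427, a 4.42-fold rise (adjusted p = 3.72e-07). Rcan2, its relative, rose 3.93-fold (503 ± 36.4 to 1978 ± 76.3, adjusted p = 5.63e-07). Neither overlapped between groups. Among the reticulum genes, Irag1, an IP3 receptor partner that limits release under cGMP signalling, went from 9.17, 14.1 and 13.8 to 398, 408 and 432, a 33.4-fold rise (adjusted p = 8.24e-07). Tmem38b, a counter-ion channel of the reticulum, rose 3.97-fold (928 ± 85.0 to 3681 ± 192, adjusted p = 6.58e-07). Jph2, which tethers reticulum to plasma membrane, rose 2.48-fold (1464 ± 129.5 to 3630 ± 166, adjusted p = 4.63e-06).

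Among the channel regulators, the inhibitor Rrad fell 3.88-fold (449 ± 55.7 to 116 ± 16.3, adjusted p = 2.07e-05), while Rem1, an inhibitor of the same GTPase family, rose 2.57-fold (291 ± 31.5 to 749 ± 13.7, adjusted p = 1.75e-05). The large scaffold Ahnak, which binds beta subunits, rose 4.27-fold (26013 ± 4368 to 111115 ± 10445, adjusted p = 7.98e-06). Of the other channels, the ATP-gated P2rx3 went from 3177, 3768 and 3682 to 30.6, 30.0 and 24.0, a 126-fold fall (adjusted p = 1.91e-08). P2rx7 fell 3.02-fold (845 ± 75.1 to 280.0 ± 7.39, adjusted p = 5.57e-06), and Pkd1, which encodes polycystin-1, rose 2.94-fold (4478 ± 988 to 13152 ± 1249, adjusted p = 6.8e-05). Of the lipases that make IP3, Plcd1 rose 2.20-fold (adjusted p = 2.39e-06), Plce1 rose 4.22-fold (adjusted p = 1.08e-05) and Plcd3 fell 2.08-fold (adjusted p = 1.16e-05). In mitochondria, the exchanger Slc8b1 fell 1.46-fold (adjusted p = 0.00075) and Letm1 rose 1.39-fold (adjusted p = 0.000297). The exchangers Slc8a2, Slc8a3 and Slc24a2 rose 4.44-fold, 2.59-fold and 4.40-fold (adjusted p of 0.000194, 0.00169 and 0.00156), each lowest in WT replicate 2.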

How the data were processed

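Messenger RNA of cultured primary cells from aorta was sequenced, with 3 WT libraries and 3 libraries labelled Bmal1 KO, and groups and replicate numbers were taken from the sample titles. The submitters' processing notes name HISAT2, Trimmomatic, featureCounts and mm10. For the counting, the annotation and the strand setting were not given in the sources used here. The authors' deposited table holds a signal per gene and library, namely read counts divided by a size factor, a scaling that assumes balanced change. Multiples of 1 step per library gave whole reads for 100% of values within 0.01. Recovered totals were 32503525 to 44657471 reads per library.

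The main test was limma 3.58.1 (R 4.3.3) with a mean-variance trend on log2(value + 1), with group as the only term, over the 16086 genes that reached 10 in 3 or more libraries, with Benjamini-Hochberg adjustment over all of them at 0.05. The pseudocount shrinks the log2 changes of low genes. A log2 fold change is also a difference of mean logs, so where libraries of a group vary widely it can exceed the log of the ratio of means, as for Ryr3. edgeR 4.0.16 on recovered reads, an alternative, called 5588 genes higher and 5891 lower, and DESeq2 1.42.0 was another. The calcium genes were those whose symbols fit the families named in the opening. Genes with a mean of at least 100 in a group are given by library, other genes by range, and each neighbouring list by its 3 lowest adjusted p-values, except that some genes are not reported here. Members and lists were chosen with earlier results of these data known, and the split by level, the low WT replicate 2, the family shares and the motifs were chosen after values were seen. Levels per kilobase use merged exons of the annotation. The exact interval of a ratio covers counting error only, because copies made by PCR are not separate molecules. Coordinates are those of GRCm38.p6, the same build as mm10.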

Additional observations from a re-analysis of the deposited data

How the results depend on the processing

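The counts of calcium genes were recomputed under 18 alternatives. They ranged from 34 to 41 higher and from 8 to 14 lower, against 39 and 9. The one that moved by over 1.5 times was the count of lower genes, at 14 once each library was corrected for transcript length and GC content, where 35 were higher and the median log2 fold change was 0.79. Under that setting Trpm7 (-0.27), Slc8a1 (-0.23) and Cacna1g (-0.30) changed sign, Itpr1 (-0.54), Cacna1c (-0.61) and Atp2a2 (-0.18) passed as lower, and Itpr2, Ryr1, Stim2 and Trpc2 lost their calls. The cause was not tested. Leaving out each library gave 37 to 39 higher and 8 to 11 lower calcium genes, 52 to 61 and 23 to 29 in the neighbouring lists, and 5253 to 5964 and 5030 to 5728 among all genes. The calls of 33 of 39 risen genes and 8 of 9 fallen genes kept their side and direction under every alternative run. Of the 12 others, 5 stayed without a call throughout, where a change of sign was not counted. The labels do not say what the replicate numbers mark. Correlations of same-numbered libraries were -0.0045, 0.026 and 0.084, and those of differently numbered libraries ran from -0.131 to 0.094. With 3 libraries per group these values cannot decide whether the samples are paired. With the replicate block, 38 calcium genes were higher and 9 lower, and 5869 and 5687 of all genes. Depth limits the weakest genes, such as Trpv3 and Trpc4, and the 13 that could not be tested.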
